A study of Mus musculus with 6 samples.

Results

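The regulators of G protein signalling (RGS proteins) were followed in mouse liver through 26 Affymetrix probe sets of 10 genes, Rgs16, Rgs1, Rgs2, Rgs3, Rgs4, Rgs5, Rgs10, Rgs12, Rgs14 and Rgs19. All probe sets that the platform's annotation assigns to 1 of these symbols alone were taken, out of 34945 single-symbol probe sets for 18193 genes. Rgs16 was chosen because it differed between the genotypes in these same arrays, so its difference is given as a description with no test, and the other 9 genes were taken by family name. Liver RNA was hybridized from male mice, 8 weeks of age, on a mixed background and fed standard chow before a fast of 24 h. Of the 6 arrays, 3 carry the label Mig-6 f/f and 3 the label Mig-6 d/d. Errfi1 encodes Mig-6, which inhibits the receptor for epidermal growth factor, and the labels write its genotypes as f/f and d/d. Errfi1 read 5371, 5424 and 5686 in the f/f arrays and 68.0, 61.8 and 59.6 in the d/d arrays, so every array matched its label. The sources used here do not say how or in which cells the d/d allele arose, nor whether the arrays hold separate animals, and the spread between arrays may be technical in part.

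A receptor coupled to a heterotrimeric G protein makes the alpha subunit exchange GDP for GTP, and alpha and beta-gamma then act on enzymes such as adenylyl cyclase and phospholipase C. RGS proteins bind the active alpha subunit and speed its GTP hydrolysis, which ends the signal. Most act on the Gi and Gq classes of alpha subunits. In liver, Rgs16 is known as a gene of hepatocytes whose transcript follows feeding, fasting and the clock, and which responds to glucose through the transcription factor ChREBP.

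The sequence before the transcription start is shown for Rgs16, the member with the largest difference, and for Rgs5, the member with the largest spread between arrays of 1 genotype. Both genes lie on chromosome 1, as do Rgs1, Rgs2 and Rgs4. The sequences are RefSeq's for the build GRCm38.p6, on the plus strand, and end at the base before the annotated start. They cover chr1:153740103-153740352 for Rgs16 and chr1:169655251-169655500 for Rgs5. Capitals mark matches, on either strand, to the GC box GGGCGG and the CCAAT box CCAAT.
Rgs16: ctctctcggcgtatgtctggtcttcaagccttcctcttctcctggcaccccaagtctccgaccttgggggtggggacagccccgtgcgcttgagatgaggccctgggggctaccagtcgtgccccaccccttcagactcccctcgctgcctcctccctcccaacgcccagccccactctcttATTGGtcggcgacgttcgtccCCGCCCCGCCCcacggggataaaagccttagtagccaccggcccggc
Rgs5: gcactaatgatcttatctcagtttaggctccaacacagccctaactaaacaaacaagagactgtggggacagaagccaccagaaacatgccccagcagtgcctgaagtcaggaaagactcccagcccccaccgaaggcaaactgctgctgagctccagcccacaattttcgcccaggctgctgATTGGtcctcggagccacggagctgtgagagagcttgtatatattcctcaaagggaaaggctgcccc

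The Rgs16 window held 2 overlapping GC boxes and 1 CCAAT box, and 66.4% of its bases were G or C, where the median of all 32851 windows of 250 bases was 52.4%. The Rgs5 window held 1 CCAAT box and no GC box, with 53.6% G or C. A GC box was found in 32.7% and a CCAAT box in 33.8% of all windows. Neither window held the E-box letters CACGTG (6.02% of windows), the TATA box letters TATAAA (12.4%) or TGACG, the core of the cAMP response element (17.8%). These exact letters alone were searched, and near matches such as tatata in the Rgs5 window and gataaa in the Rgs16 window were not counted. A match is a description of letters and not of a bound site. Of the 10 genes, 8 had an entry, with 12 windows, and TGACG was matched in windows of Rgs2, Rgs4 and Rgs12.

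One array of the series, f/f replicate 3, stood apart from the rest. Its control probe sets for 18S ribosomal RNA averaged 3807, where the other 5 arrays had 218 to 455. Its correlation with the others averaged 0.9518 over probe sets, and theirs 0.9745 to 0.9782. After scaling it was the highest of the 6 arrays on 27.6% of all single-symbol probe sets, and on 3 of the 23 RGS probe sets other than those of Rgs16. The brightest hepatocyte marker, Alb, read 33743 to 34157 in f/f and 34684 to 35800 in d/d. Apoa1 was also higher in every d/d array, Tat and Cps1 were lower, and Ttr and Hnf4a overlapped. Groups without overlap were seen for 14.1% of all genes tested. After scaling, 1 of these 6 markers had a d/d minus f/f difference above 0, and the median was -0.016 log2. Tat had -0.39, or -0.26 without f/f replicate 3. Values without that array are given below for RGS differences and some others that it moved.

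Rgs16 transcript was higher in d/d livers on all 3 of its probe sets. On the brightest, 1455265_a_at, the deposited intensities were 218.6, 189.3 and 243.1 in f/f and 706.1, 777.1 and 714.1 in d/d. The groups did not overlap, and the lowest d/d array stood far above the highest f/f array. The means were 217 ± 27.0 and 732 ± 38.9 (SD, n = 3 each), a ratio of 3.38. On the scale used for comparisons, log2(intensity + 16) after quantile normalization, d/d minus f/f was 1.70 ± 0.11 (standard error from limma). In whole liver, a change in the number of cells of a type and a change in RNA per cell cannot be told apart.

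The second probe set of Rgs16, 1426037_a_at, read 106.6, 91.0 and 96.2 in f/f and 348.3, 367.9 and 399.0 in d/d. Its groups were as clearly separate as those of the first. The means were 98.0 ± 7.97 and 372 ± 25.5 (SD, n = 3 each), a ratio of 3.79, and the log2 difference was 1.78 ± 0.12.

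The third probe set of Rgs16, 1451452_a_at, gave a smaller difference. It read 115.7, 111.2 and 185.8 in f/f and 203.4, 217.1 and 213.6 in d/d. The groups did not overlap, though f/f replicate 3 lay closer to the d/d arrays than to the other f/f arrays. The means were 138 ± 41.8 and 211 ± 7.14 (SD, n = 3 each), a ratio of 1.54, and the log2 difference was 0.59 ± 0.15. Without f/f replicate 3 it was 0.79, so the gap to the other probe sets remained. The files do not place the probe sets along the transcript. Each d/d array was higher than the f/f mean by 1.66 to 1.77 log2 on 1455265_a_at, by 1.71 to 1.87 on 1426037_a_at and by 0.55 to 0.62 on 1451452_a_at. The d/d arrays were thus close to one another on each probe set, and the probe sets differed in the size of the change.

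**Figure D1:**
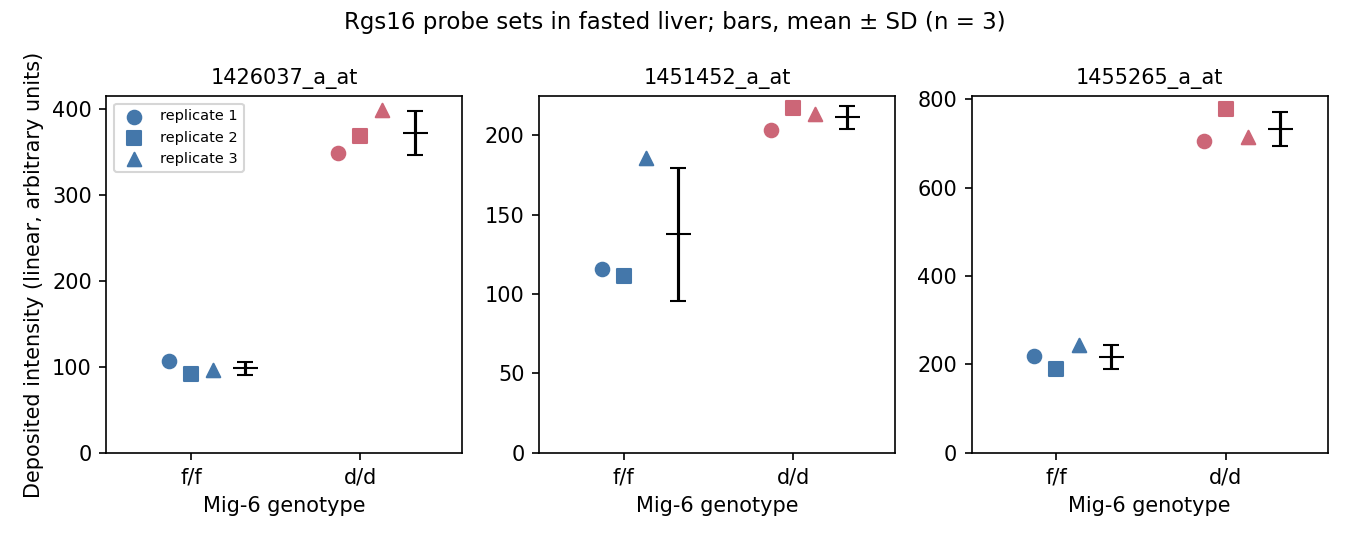
Deposited intensity (linear, vertical axis from 0, with its own range in each panel) of the 3 Rgs16 probe sets, in Mig-6 f/f (blue) and Mig-6 d/d livers (red); each symbol is 1 array and bars are mean ± SD (n = 3). The d/d arrays lie above all f/f arrays in each panel, and f/f replicate 3 (triangle) at 185.8 comes close to them in the panel of 1451452_a_at.

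Of the 10 genes, 7 had a probe set above the dim limit, an intensity of about 48.4 that 40% of all probe sets did not exceed on average. The mean of every probe set of Rgs2, Rgs4 and Rgs19 was below it. The 7 genes entered the limma fit over 13718 genes, of which 13 or 0.0948% passed an adjusted p of 0.05, 0.0437% as higher and 0.051% as lower. No call is given for Rgs16, which was chosen from this comparison. Of the other 6 genes, 0 passed in limma with Benjamini-Hochberg adjustment, and 0 had an unadjusted p under 0.05, which 7.84% of all genes did. The median log2 difference was 0.033 over the 7 genes and 0.032 over the 6 without Rgs16, and it was -0.015 over all genes tested. Without f/f replicate 3, 91 genes passed in place of 13, and the Rgs16 difference on 1455265_a_at was 1.76. Of the 9 other RGS genes, 7 were then tested, 0 passed in limma with Benjamini-Hochberg adjustment and 1 had an unadjusted p below 0.05.

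Among the remaining small RGS proteins of the same subfamily as Rgs16 (Rgs1, Rgs2, Rgs3, Rgs4 and Rgs5), Rgs5 had the widest spread between arrays. Rgs5 is known from pericytes and vascular smooth muscle cells. Its probe set 1417466_at read 334.8, 448.7 and 217.6 in f/f and 183.5, 251.8 and 389.8 in d/d. The groups overlapped almost fully, and the log2 difference was -0.26 ± 0.30 (95% interval -0.96 to 0.44). Leaving out f/f replicate 3 gave -0.54 and leaving out d/d replicate 3 gave -0.52. Leaving out d/d replicate 1 gave -0.025, and leaving out f/f replicate 2 gave -0.021.

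The arrays of 1 genotype differed in Rgs5 in the same order on several probe sets. The probe sets 1417466_at, 1420941_at and 1420942_s_at put all 6 arrays in an identical order, with f/f replicate 2 highest, then d/d replicate 3, and d/d replicate 1 lowest. Their highest array read 2.45, 2.47 and 1.92 times the lowest. The fourth, 1420940_x_at, ran from 45.6 to 64.3 and also had f/f replicate 3 and d/d replicate 1 as the lowest arrays of their groups. These probe sets share the gene and the RNA of each array, so their common order is 1 observation per array. The spread within genotypes on 1417466_at was 0.51 log2, larger than that of 98.6% of the genes tested, whose median was 0.16.

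Markers of stellate cells and pericytes were set beside Rgs5 (all 9 listed were above the dim limit). Their summed deposited intensity was 2804 to 3110 in f/f and 2273 to 2700 in d/d. Most of that sum was Dcn, and the other 8 markers summed to 824 to 946 in f/f and 807 to 918 in d/d, ranges that overlapped. Dcn, a proteoglycan of the matrix, had 2058 ± 95.2 in f/f and 1679 ± 184 in d/d (SD, n = 3 each), with a log2 difference of -0.28 ± 0.12 (Benjamini-Hochberg adjusted p = 0.598 in limma). Over the 6 arrays, the Pearson correlations of Rgs5 with these 9 markers ran from -0.67 for Des to 0.88 for Reln, with Lrat at 0.86 and Pdgfrb at -0.34. Of 4 smooth muscle markers 3 were above the dim limit, and their correlations with Rgs5 were -0.29 for Acta2, -0.37 for Myh11 and 0.76 for Tagln. The points share the arrays and their scaling, and the part of these cells in the Rgs5 readings was not tested. The genes closest to Rgs5 over the 6 arrays, picked after their values were seen, were Fbrs (0.989), Aktip (0.987) and Mef2c (0.986), each with a 95% interval of the genotype difference that spans 0.

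**Figure D2:**
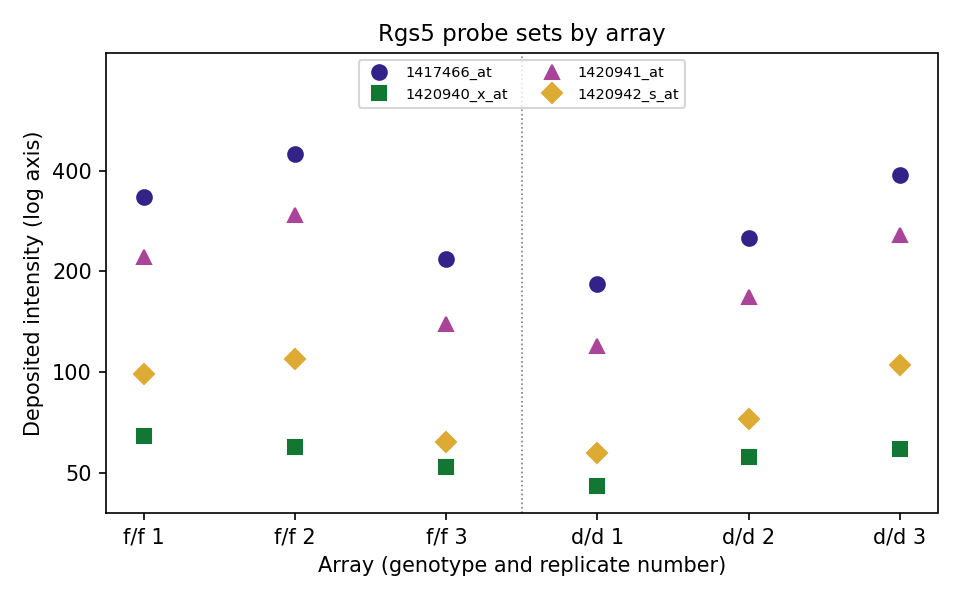
Deposited intensity (log axis) of the 4 Rgs5 probe sets in each of the 6 arrays, with f/f arrays left and d/d arrays right of the dotted line; each symbol is 1 probe set on 1 array. On 3 of the probe sets f/f replicate 2 is highest and d/d replicate 1 lowest, while the genotypes overlap.

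Rgs1, known from B cells and other lymphocytes, has 1 probe set. It read 116.8, 121.3 and 130.2 in f/f and 154.1, 144.6 and 103.0 in d/d. The d/d arrays lay on both sides of the f/f arrays, and the log2 difference was 0.12 ± 0.14 (95% interval -0.20 to 0.44). With d/d replicate 3 left out it was 0.26, with d/d replicate 1 left out 0.020 and with d/d replicate 2 left out 0.080. Of 4 B cell markers, 2 were above the dim limit. Ms4a1, the antigen CD20, read 58.5 to 86.7 in f/f and 116.4 to 187.8 in d/d, with a log2 difference of 0.93 ± 0.19 (Benjamini-Hochberg adjusted p = 0.181 in limma), and Cd79a, a chain of the B cell receptor complex, had -0.15 ± 0.11. The summed intensity of both was 124 to 156 in f/f and 171 to 250 in d/d. Cd79a alone read 65.9 to 84.2 in f/f and 54.8 to 72.8 in d/d, so the separation of the sum came from Ms4a1. The part of B cells in the Rgs1 readings was not tested.

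Rgs3, which acts on Gi and Gq subunits, has 4 probe sets, 3 of them above the dim limit. The brightest by mean after scaling, 1425296_a_at, read 81.9, 99.6 and 100.02 in f/f and 102.0, 84.1 and 99.4 in d/d, a log2 difference of 0.033 ± 0.13 (95% interval -0.26 to 0.32). Its sign changed when f/f replicate 1 (-0.018) or d/d replicate 1 (-0.011) was left out, and when its probe sets were averaged. The probe sets of Rgs3 ranged in their differences from -0.26 on 1454026_a_at to 0.16 on 1425701_a_at, and the groups overlapped on each. On 1454026_a_at, f/f replicate 3 read 131.2 where the other 5 arrays read 74.4 to 96.0, and the difference without it was -0.13.

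Rgs2, which prefers Gq, and Rgs4, which acts on Gi and Gq, were dim on average on every probe set, with single arrays above the limit. The 4 probe sets of Rgs2 read between 15.4 and 59.8, with log2 differences from -0.21 to 0.070 and overlapping groups. The 3 probe sets of Rgs4 read between 26.4 and 51.0, with differences from -0.23 to 0.019. On 1 of these, 1416286_at, the readings were 33.5, 42.6 and 36.7 in f/f and 26.4, 29.3 and 31.9 in d/d, so the groups did not overlap. The other probe sets of Rgs4 had -0.0029 and 0.019. On dim probe sets the added 16 keeps differences small, and these values bound neither gene closely.

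Rgs10, Rgs12 and Rgs14 form a subfamily that acts on Gi-class subunits. Rgs12 and Rgs14 are larger proteins with additional Ras-binding and GoLoco domains, and Rgs10 is known from macrophages and other immune cells. Rgs10 read 85.2, 94.6 and 132.4 in f/f and 113.7, 122.5 and 108.3 in d/d. The d/d arrays fell inside the f/f range only because of f/f replicate 3, and lay above the other f/f arrays. The log2 difference was 0.16 ± 0.13 (95% interval -0.13 to 0.45). Without f/f replicate 3 it was 0.27 (Benjamini-Hochberg adjusted p = 0.323 in limma). Kupffer cell markers, for the resident macrophages of liver, had a median log2 difference of -0.31 over the 7 tested, 1 positive and 6 negative. Their summed intensities were 2434 to 3589 in f/f and 2117 to 2721 in d/d. The brightest of them, Cd5l, had -0.32 ± 0.20 (Benjamini-Hochberg adjusted p = 0.782 in limma), or -0.16 without f/f replicate 3. Without that array the 7 ran from -0.35 for Vsig4 to 0.25 for Marco. Clec4f then went from -0.31 to -0.21, Csf1r from -0.41 to -0.20, C1qa from -0.41 to -0.34 and Vsig4 from -0.26 to -0.35. With all arrays, C1qa (-0.41 ± 0.13) was the only marker of this list with an unadjusted p under 0.05 in limma (Benjamini-Hochberg adjusted p = 0.390). Its groups did not overlap, as for 14.1% of all genes tested. The part of these cells in the Rgs10 reading was not tested.

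Rgs12 differed in sign between its probe sets. The brightest, 1429380_at, read 135.8, 135.3 and 257.8 in f/f and 121.2, 177.5 and 111.1 in d/d. One array, f/f replicate 3, stood above the other 5, and the log2 difference was -0.29 ± 0.24 (95% interval -0.84 to 0.26), or -0.029 without that array. The dim probe set 1457511_at read 45.5, 28.9 and 48.5 in f/f and 60.7, 53.9 and 53.7 in d/d. There the groups did not overlap, and the log2 difference was 0.38 ± 0.14 (95% interval 0.067 to 0.69). The Benjamini-Hochberg adjusted p in limma over all single-symbol probe sets was 0.631. With f/f replicate 1, 2 or 3 left out, the difference on this probe set was 0.47, 0.24 and 0.43. The third probe set, 1453129_a_at, had 0.053 ± 0.15 with overlapping groups.

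Rgs14 read 86.0, 78.7 and 103.3 in f/f and 80.3, 109.2 and 81.7 in d/d. The groups overlapped, and the log2 difference was 0.031 ± 0.13 (95% interval -0.26 to 0.32). Its sign changed when d/d replicate 2 (-0.073) or f/f replicate 2 (-0.016) was left out. Rgs19, which binds Gi-class subunits and belongs to a further subfamily, was dim on both probe sets. They read between 22.8 and 41.9, with log2 differences of -0.045 ± 0.17 and -0.13 ± 0.18.

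Over all 23 probe sets of the 9 genes other than Rgs16, the log2 differences ran from -0.29 to 0.38, with 9 above and 14 below 0. The groups did not overlap on 2 of them, 1416286_at of Rgs4 as lower and 1457511_at of Rgs12 as higher. Of all single-symbol probe sets, 12.6% had groups without overlap. The other probe sets of Rgs4 and Rgs12 did not repeat either separation.

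**Figure D3:**
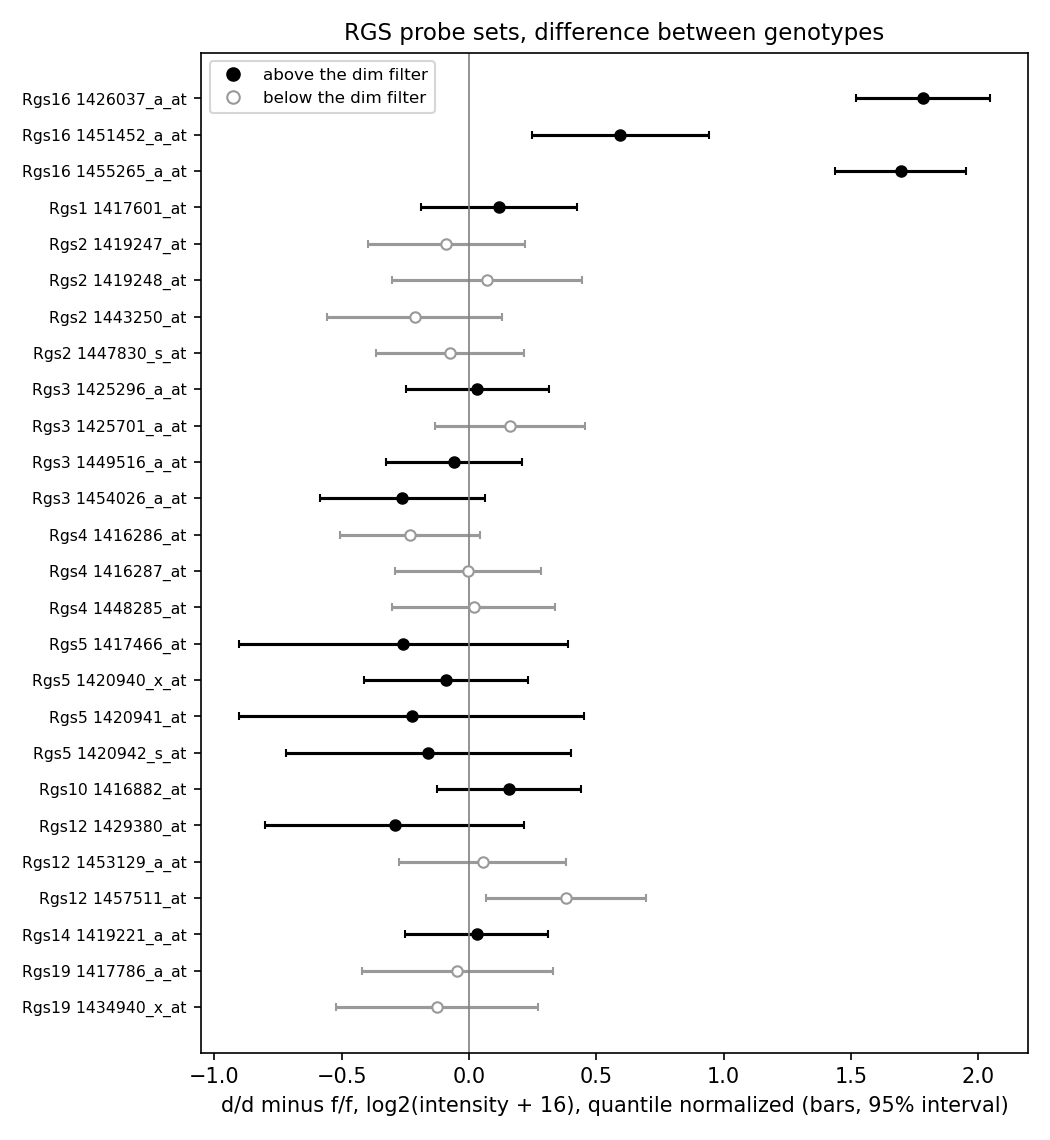
Difference between genotypes (d/d minus f/f, horizontal axis, log2(intensity + 16) after quantile normalization) of all 26 RGS probe sets, with 95% intervals from the limma fit over all single-symbol probe sets as bars; filled points lie above and open points below the dim limit. The 3 Rgs16 probe sets lie at 0.59 to 1.78, and the other 23 between -0.29 and 0.38.

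Across the 6 arrays, Rgs16 on 1455265_a_at was most alike to Oas1f (Pearson correlation 0.997), Klkb1 (0.995), Amot (0.992), C1s1 (0.988) and C1ra (0.986). Klkb1 encodes plasma prekallikrein, and C1s1 and C1ra encode proteases of the first complement component. Their own differences were far smaller than that of Rgs16, at 0.25 log2 for C1ra to 0.49 for C1s1. The most opposed genes were Mettl7b (-0.997), Errfi1 (-0.994) and Cyp8b1 (-0.992), with differences of -0.25, -6.10 and -1.02. The arrays fall into the 2 genotypes that Rgs16 separates, so these correlations share that contrast and are a description over 6 arrays.

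The genes beside Rgs16 on chromosome 1 were read as well, a set added after the data were seen. Of the nearest protein-coding genes with a probe set, 4 on each side, Rgs8 is the closest on one side, another small RGS gene, and read 34.7 ± 4.58 in f/f and 33.4 ± 5.72 in d/d (SD, n = 3 each). Its log2 difference was -0.022 ± 0.13. Dhx9, an RNA helicase, had 0.033 ± 0.14 and Glul, glutamine synthetase, -0.12 ± 0.15. The 8 neighbours ran from -0.22 for Shcbp1l to 0.22 for Ier5, an early response gene. Of these, Rgs8, Npl and Shcbp1l were below the dim limit on average. The constant added before the logarithm keeps differences small there, so the values of Rgs8, Npl and Shcbp1l bound none of these genes closely. The groups of Ier5 did not overlap, as for 12.6% of all single-symbol probe sets.

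The other genes of G protein signalling were read in 10 lists. Of 136 listed genes, 98 were tested, 46 with a positive and 52 with a negative difference, and the median was -0.016 where all genes had -0.015. Over the 15 alternatives that median ran from -0.037 to 0.020, and it was 0.015 without f/f replicate 3. In limma with Benjamini-Hochberg adjustment 0 passed, and 10 (10.2%) had an unadjusted p under 0.05 where 7.84% of all genes did. Of the other genes with an RGS or related domain, 9 of 18 were tested and 0 passed in limma, with 0 at an unadjusted p under 0.05. In that list Snx13, a sorting nexin, had 0.35 ± 0.17 (0.18 without f/f replicate 3) and Rgs20 0.18 ± 0.11.

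Among alpha subunits, the substrates of RGS proteins, 0 of the 15 tested passed in limma, with 2 at an unadjusted p under 0.05. Of the Gi class, 1 of 7 had a positive and 6 a negative difference, with a median of -0.11. This median turned to 0.046 without f/f replicate 3 and to 0.019 with array weights. The positive one was that of Gnai3, which read 489.1 to 558.6 in f/f and 610.7 to 650.8 in d/d, a log2 difference of 0.26 ± 0.10 (Benjamini-Hochberg adjusted p = 0.587 in limma), and Gnat2 had -0.14 ± 0.12. Of the Gq class, 3 of 4 differences were positive, with a median of 0.21, which was 0.081 when the probe sets of a gene were averaged. Gnaq had 0.37 ± 0.18 and Gna14 0.24 ± 0.12, and without f/f replicate 3 they had 0.17 and 0.16. Of the 4 others, Gnal, the olfactory form of the Gs subunit, read 125.4 to 146.0 in f/f and 89.0 to 99.1 in d/d, with -0.43 ± 0.098 (Benjamini-Hochberg adjusted p = 0.232 in limma), and Gna12 had 0.13 ± 0.11.

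Of 12 beta and gamma subunits tested, 0 passed in limma, with 0 at an unadjusted p under 0.05. The smallest p-values were those of Gnb4 (-0.18 ± 0.12) and Gng12 (0.20 ± 0.16, and 0.027 without f/f replicate 3). Of 5 regulators that act without a receptor, 0 passed and 1 had an unadjusted p under 0.05 in limma, Gpsm3, which binds Gi subunits, at 0.33 ± 0.13, and Pcp2 had -0.24 ± 0.17. Of 5 receptor kinases and arrestins, 0 passed and 0 had an unadjusted p under 0.05 in limma. Grk5 had -0.25 ± 0.12 and Arrb2 -0.42 ± 0.24, the latter with f/f replicate 3 at 226.2 and the other arrays at 92.4 to 107.1. Without f/f replicate 3, Arrb2 had -0.11.

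Among adenylyl cyclases and cAMP effectors, 0 of 22 passed in limma, with 2 at an unadjusted p under 0.05, both of them phosphodiesterases that break cAMP down. Pde4a read 74.0 to 89.0 in f/f and 108.6 to 143.3 in d/d, with a log2 difference of 0.59 ± 0.12 (Benjamini-Hochberg adjusted p = 0.179 in limma). Pde4b went the other way, from 117.9 to 176.7 in f/f and from 67.6 to 89.8 in d/d, with -0.82 ± 0.19 (adjusted p = 0.236). Without f/f replicate 3 the difference was -1.03 ± 0.14 for Pde4b and 0.59 ± 0.12 for Pde4a. Among phospholipase C and calcium effectors, 0 of 12 passed in limma, with 2 at an unadjusted p under 0.05. These were Itpr2, an inositol trisphosphate receptor found in hepatocytes (0.58 ± 0.15), and Prkcb, a protein kinase C (0.33 ± 0.11). Without f/f replicate 3 they had 0.47 and 0.37.

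Of 18 receptors tested, 0 passed in limma, with 3 at an unadjusted p under 0.05. Avpr1a, the vasopressin receptor that couples to Gq, read 142.5 to 185.1 in f/f and 94.7 to 109.5 in d/d, a log2 difference of -0.59 ± 0.12 (Benjamini-Hochberg adjusted p = 0.179 in limma). F2r, a thrombin receptor, read 408.5 to 456.8 in f/f and 573.1 to 641.1 in d/d, with 0.47 ± 0.11 (adjusted p = 0.231). Groups were separate for both genes, in opposite directions, as they were for 14.1% of all genes tested. Both genes were named for their small p-values, so this separation adds little.

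Rgs16 is known as a ChREBP target, so genes that respond to glucose through ChREBP were read beside it. Of 15 tested, 1 passed as lower in limma and 14 did not pass. An unadjusted p under 0.05 in limma was seen for 4 of the 15, where the share over all genes was 7.84%. Of the differences 9 were positive, with a median of 0.090. The median turned to -0.019 without f/f replicate 3 and to -0.014 with array weights. It was 0.017 without d/d replicate 3, 0.15 without d/d replicate 1, 0.21 without f/f replicate 2 and 0.048 with probe sets averaged. The gene that passed was G6pc, the glucose-6-phosphatase subunit, at -1.24 ± 0.14 (Benjamini-Hochberg adjusted p = 0.0251 in limma). Its call ended with the replicate number as a block and with f/f replicate 1 or 2 or d/d replicate 1 or 2 left out (adjusted p from 0.00153 to 0.210 over its alternatives). Mlxipl, the gene of ChREBP itself, read 262.2 to 306.9 in f/f and 374.5 to 429.9 in d/d, with a log2 difference of 0.49 ± 0.11 (Benjamini-Hochberg adjusted p = 0.203 in limma). The remaining genes with an unadjusted p under 0.05 were Khk, ketohexokinase (0.36 ± 0.12), and Slc2a2, the glucose transporter of hepatocytes (0.50 ± 0.19, and 0.29 without f/f replicate 3). The groups did not overlap for either of them, as for 14.1% of all genes tested, and both were named after their values were seen. Besides G6pc, the 6 negative differences included Txnip at -0.34 ± 0.16 and Pklr at -0.38 ± 0.21, with overlapping groups. Without f/f replicate 3, Txnip had -0.46 and Pklr -0.13.

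Rgs16 has been described as a brake on hepatic fatty acid oxidation, and 11 genes of a list on oxidation and ketones were tested. The list includes Cyp4a14, an omega-hydroxylase, and Fgf21, a hormone, which are not enzymes of beta-oxidation or ketone synthesis. In limma 0 passed, and 4 of the 11 had an unadjusted p under 0.05, where the share over all genes was 7.84%. These 4 were Cpt1a, Cpt2, Cyp4a14 and Fgf21. Of the 11 differences 8 were negative, with a median of -0.14. With f/f replicate 1 left out the median was -0.016, and with f/f replicate 2 left out it was -0.22. With d/d replicate 1 left out it was -0.28, and with d/d replicate 3 left out -0.061. Cpt2, of the mitochondrial carnitine shuttle, read 984.1 to 1180 in f/f and 685.6 to 833.0 in d/d, a log2 difference of -0.44 ± 0.13 (Benjamini-Hochberg adjusted p = 0.370 in limma). Cpt1a, its partner and the entry step of oxidation, read 2539 to 2892 in f/f and 1927 to 2201 in d/d, with -0.34 ± 0.11 (adjusted p = 0.434). Cyp4a14 had the largest difference of the list, -1.60 ± 0.57, and Fgf21 had -0.36 ± 0.16. The groups overlapped for both.

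**Figure D4:**
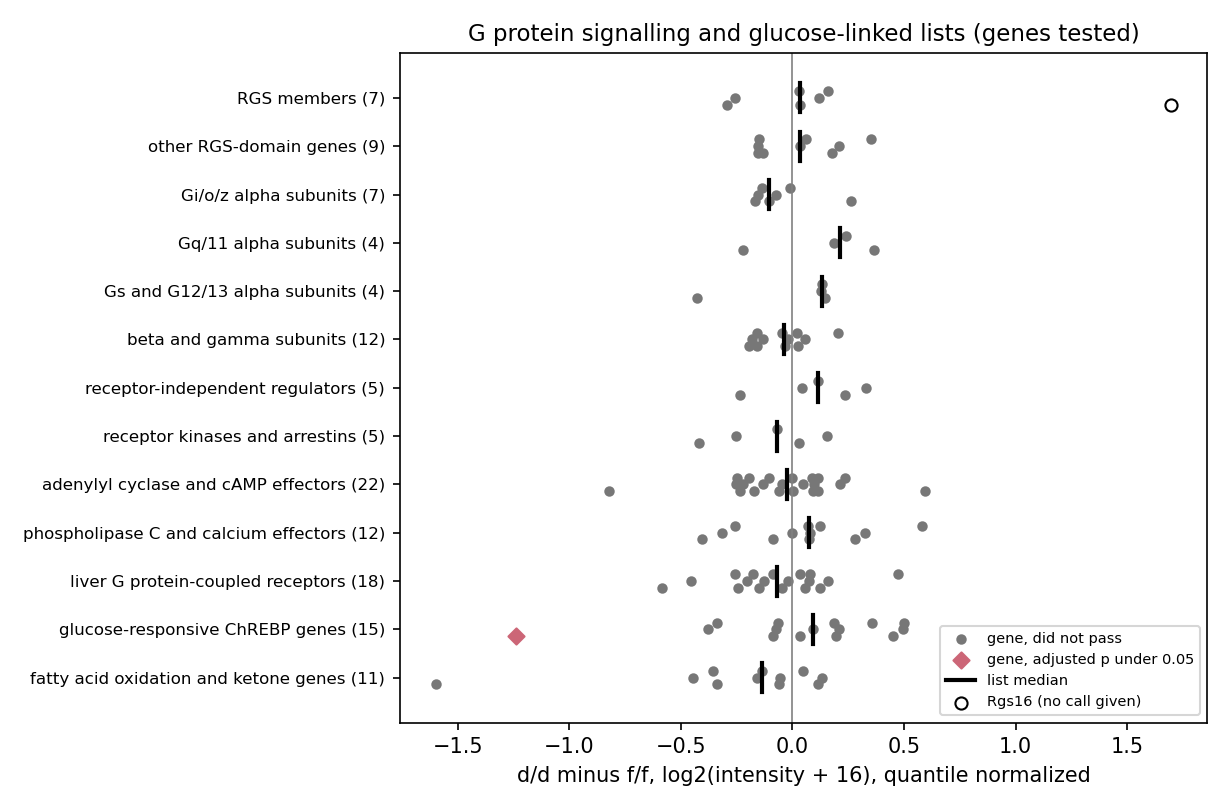
Difference between genotypes (d/d minus f/f, horizontal axis, log2(intensity + 16) after quantile normalization) of each gene tested in the RGS list, the 10 G protein signalling lists and the 2 glucose and fatty acid lists, with the number tested in brackets. Points are genes, the diamond is G6pc, past an adjusted p of 0.05, the open circle is Rgs16, for which no call is given, and black lines are list medians, which lie between -0.14 and 0.21.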

How the data were processed

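Each array's deposited column holds 1 linear intensity for each of 45101 probe sets, on 6 arrays, 3 per genotype. The sources used here do not give how the authors summarized and scaled them. Median intensities were 55.6 to 65.4, and precision is limited by the number of arrays. For names the platform's annotation was used: 34945 had 1 symbol, 932 several, 9160 none and 64 were controls. Of those with 1 symbol, the Entrez number of 34741 was found in the RefSeq gene table (GRCm38.p6).

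Intensities were used as log2(intensity + 16). Array medians and quartiles differed by up to 0.185 log2, above a tolerance of 0.1, so arrays were quantile normalized. For each gene the probe set with the highest mean was tested, and the dimmest 40% of probe sets (log2 value up to 6.01) were left out, leaving 13718 genes. The genotype difference was fitted with limma 3.58.1 (lmFit, eBayes; R 4.3.3) with no covariate, at a Benjamini-Hochberg adjusted threshold of 0.05. Differences of RGS probe sets that do not stand for their gene come from the same fit over all 34945 single-symbol probe sets. The fit was also run on 5 simulated data sets with 200 changed genes. Their values were drawn independently, with the same spread on every array. Such sets hold no array like f/f replicate 3, so they cannot check the fit for these data. Motifs and figures were made with Python 3.11.15, pandas 2.3.3 and matplotlib 3.10.9.

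The members and lists were chosen with earlier results of these data known. Named genes are all members, Errfi1, genes past the threshold or else the 2 smallest p-values of each list, the 5 genes most and the 3 least alike to Rgs16, and the brightest marker of a list. Genes beside Rgs16 on its chromosome, genes alike to Rgs5 and further markers of cell types were named after their values were seen. So were Mlxipl, Khk, Slc2a2, Txnip, Pklr, Cyp4a14 and Fgf21. Arrays of the same replicate number showed no positive likeness (correlations of deviations -0.0033, -0.14 and -0.47), so no pairing was used. With 3 arrays per group and f/f replicate 3 apart from the rest, these values cannot exclude a pairing. Outliers were not tested in groups of 3. The alternatives were other scalings, filters, probe set rules, pseudocounts, variance models, array weights, the replicate block and each array left out.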

Additional observations from a re-analysis of the deposited data

How the results depend on the processing

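Of 13718 genes 13 passed, and 21 did with a mean-variance trend and 215 with array weights (f/f replicate 3 at 0.178). With the replicate number as a block 6 passed, and whether the numbers pair the arrays is not known. With 1 array left out, 4 (without d/d replicate 1) to 91 genes (without f/f replicate 3) passed. The Rgs16 difference of 1.70 became 1.36 as the mean of its probe sets and 1.51 with a pseudocount of 64. It ran from 1.61 to 1.76 with 1 array left out. Of the 9 other RGS genes 0 passed in limma under any of the 15 alternatives. At an unadjusted p under 0.05, 2 of them lay there with array weights, 1 without f/f replicate 3 and 0 in the others. With no dim filter all 9 were tested. Signs of RGS probe sets turned under up to 4 alternatives, 4 for 1448285_at of Rgs4 and 2 each for 1420941_at and 1420942_s_at of Rgs5. Dim probe sets limit what can be said of Rgs2, Rgs4 and Rgs19.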
